A study of Mus musculus with 5 samples.

Results

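The genes described here are 41 interferon-stimulated genes of the mouse, followed gene by gene through every cell class of the dentate gyrus, the part of the hippocampus that receives input from the entorhinal cortex. They were chosen by name: each is a row of the deposited matrices whose symbol equals a member of the list, and all 41 symbols were found among the 78334 genes of all 5 matrices. The list holds 6 regulators of the response, 4 sensors of RNA or DNA, 5 RNA-binding effectors, 4 small secreted or membrane proteins, 11 GTPases, 3 genes of ADP-ribosylation, 2 nucleotide enzymes and 6 others.

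Interferons are secreted proteins that cells release when they sense foreign or misplaced nucleic acids, or, for interferon gamma, that activated T and NK cells release. Type I interferons act through a receptor and the JAK kinases on a complex that holds STAT2 and IRF9 and binds interferon-stimulated response elements in promoters, whereas interferon gamma acts through gamma-activated sites. In the brain, microglia, endothelial cells and astrocytes are known to switch on these genes after infection or when lymphocytes enter the tissue.

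The study measured RNA of the dentate gyrus in 5 libraries, each said to hold 10 mice and each the only library of its group. CFC-14d was made from cells of wild-type mice, taken 14 days after contextual fear conditioning (CFC), in which mice learn to link a chamber with foot shocks, and Random-14d held cells of wild-type mice 14 days after random foot shocks. WT-naive, WT-CFC and KO-CFC held nuclei from frozen tissue: of untreated wild-type mice, of wild-type mice 14 days after CFC, and of mice labelled as lacking a gene 14 days after CFC. The title of KO-CFC names Csf2rb2, a receptor subunit of interleukin 3, and its genotype tag names Csf2rb3. Age, sex, the allele and the cells in which it acts were not given in the sources used here. Cells were freed with collagenase and treated to lyse red cells, which nuclei were not, so the values of cells and of nuclei are not compared.

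The promoter stretches below are shown because they carry the letters that the complex named above is known to bind. RefSeq windows of the older build GRCm38.p6 were used for 29 of the 41 genes (33 windows), and the 250 bases before each start were searched on both strands. Any windows of the 41 genes on a single chromosome were left out, while the windows of all genes kept that chromosome. The core of the interferon-stimulated response element was written as GAAA, 2 bases of any kind and GAAA, which reads TTTC, 2 bases of any kind and TTTC on the other strand. It was found in 15 of the 33 windows (45.5%) and in 2.98% of the 32851 windows of all genes. The core of the gamma-activated site, TTCNNNGAA, was found in 6 of the 33 (18.2%) and in 7.02% of all. The 2 motifs can share bases. A match describes letters and does not show that a factor binds. Capitals mark the fixed letters of the response element in the match nearest to the start. Bst2 lies at chr8:71537562-71537621 (minus strand), Irgm2 at chr11:58214888-58214947 (plus), Igtp at chr11:58199497-58199555 (plus) and Stat2 at chr10:128270251-128270310 (plus). Ifit3 lies at chr19:34583382-34583441 (plus), Gbp2 at chr3:142620579-142620638 (plus), Isg15 at chr4:156200850-156200909 (minus) and Rsad2 at chr12:26456538-26456597 (minus). The stretches of the neighbouring genes Irgm2 and Igtp, aligned on the match, had the same base at 57 of 59 positions.
Bst2: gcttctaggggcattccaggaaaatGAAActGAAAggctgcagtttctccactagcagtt
Irgm2: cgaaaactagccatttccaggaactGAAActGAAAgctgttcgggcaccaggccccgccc
Igtp: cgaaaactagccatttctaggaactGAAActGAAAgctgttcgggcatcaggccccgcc
Stat2: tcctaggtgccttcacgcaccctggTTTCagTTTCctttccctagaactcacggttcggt
Ifit3: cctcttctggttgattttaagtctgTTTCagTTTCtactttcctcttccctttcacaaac
Gbp2: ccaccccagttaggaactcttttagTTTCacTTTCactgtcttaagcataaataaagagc
Isg15: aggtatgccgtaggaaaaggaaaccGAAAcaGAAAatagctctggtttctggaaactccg
Rsad2: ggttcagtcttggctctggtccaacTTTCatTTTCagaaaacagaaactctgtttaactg

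The libraries held 38045642 to 126937815 UMIs (unique molecules counted per gene and droplet barcode), with 500 or more in every barcode. After quality filters and removal of likely doublets, CFC-14d kept 28532 barcodes and Random-14d kept 26462. Of nuclei, WT-naive kept 9894, WT-CFC 12015 and KO-CFC 7708. A class ending in "-like" is a set of clusters named by fixed markers, made without the 41 genes. Levels are summed UMIs of a gene, or of all 41, per 1000000 UMIs of the class in that library (CPM), and 95% intervals are exact and cover counting error only. With 1 library per group no test between groups is possible and no p-value is given. The library labelled KO-CFC stood apart from both other nuclei libraries. It held 331 T or NK cell-like nuclei against 0 in WT-CFC and 3 in WT-naive, a further cluster of 1023 nuclei led by antibody genes, and its Xist level was 641 CPM against 1.81 and 2.94 CPM. Ddx3y, a Y-linked gene, stood at 6.39 CPM in it and at 32.0 and 28.3 CPM in WT-CFC and WT-naive. Csf2rb2 RNA was counted in it at 9.67 CPM (368 UMIs), against 17.6 CPM in WT-CFC and 14.4 CPM in WT-naive. The files do not say which part of the gene was deleted, so this count does not check the genotype. Barcode sequences shared between libraries of one preparation numbered 25 to 282.

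In the library labelled KO-CFC the 41 genes were higher than in both wild-type libraries in every named class of nucleus with 100 or more barcodes in each library, and its levels were higher in the glia than in the neurons. Summed over all nuclei the genes stood at 75.9 CPM in WT-naive, 84.6 CPM in WT-CFC and 554 CPM in KO-CFC. In microglia-like nuclei, the resident macrophages, they stood at 378 CPM (95% interval 324 to 438), 607 CPM (542 to 677) and 2849 CPM (2743 to 2957). In astrocyte-like nuclei the values were 157, 220 and 1949 CPM, and in oligodendrocyte-like nuclei, which make myelin, 73.8, 93.1 and 1646 CPM. These 3 classes were each a single cluster, that of microglia with 12 of its 13 markers at least 2-fold above the other nuclei, and in each the interval of KO-CFC lay apart from those of the wild-type libraries. Neurons started lower and ended lower. Granule neuron-like nuclei, the principal cells of the dentate gyrus, stood at 54.6, 58.0 and 291 CPM, and CA3 or CA2 pyramidal neuron-like nuclei at 62.9, 63.5 and 128 CPM.

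**Figure D1:**
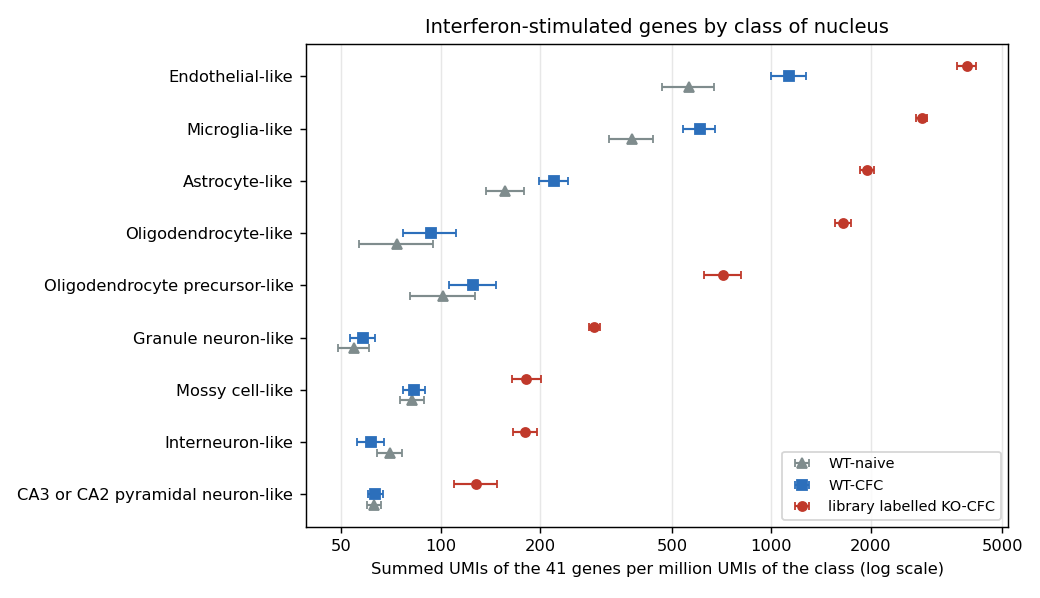
Summed UMIs of the 41 genes per 1000000 UMIs of each class of nucleus (log scale) in WT-naive (triangles), WT-CFC (squares) and the library labelled KO-CFC (circles), with exact 95% counting intervals. The circles lie right of the other symbols in every class drawn, from 128 CPM in CA3 or CA2 pyramidal neuron-like to 3898 CPM in endothelial-like nuclei, a class of 59 to 77 nuclei per library. Haemoglobin genes were among the leading genes of the endothelial-like cluster.

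As a ratio of sums, KO-CFC stood 17.7-fold above WT-CFC in oligodendrocyte-like nuclei (log2 ratio 4.14, 3.87 to 4.43) and 8.87-fold in astrocyte-like nuclei (3.15, 2.99 to 3.31). In oligodendrocyte precursor-like nuclei the ratio was 5.70-fold (2.51, 2.21 to 2.81), in granule neuron-like 5.02-fold (2.33, 2.19 to 2.47) and in microglia-like 4.70-fold (2.23, 2.06 to 2.40). Interneuron-like, mossy cell-like and CA3 or CA2 pyramidal neuron-like nuclei followed at 2.92, 2.18 and 2.01-fold. Microglia-like nuclei thus had the highest level in all 3 libraries among these 8 classes. Neighbouring intervals overlapped for oligodendrocyte precursor-like, granule neuron-like and microglia-like nuclei. Over genes with at least 100 UMIs in the pair, the median log2 ratio was -0.22 in oligodendrocyte-like, -0.08 in astrocyte-like, -0.10 in microglia-like and 0.05 in granule neuron-like nuclei, which is small beside the ratios of the 41 genes. Where the 41 genes were allowed to shape the clusters, the log2 ratio of astrocyte-like nuclei was 2.50.

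Counting genes at any difference, 41 of the 41 had a higher CPM in KO-CFC than in WT-CFC in microglia-like nuclei, where 56.3% of all 27834 genes with a UMI did. The count was 41 of 41 in granule neuron-like nuclei (all genes 55.5%), 40 of 41 in astrocyte-like (51.1%), 40 of 41 in oligodendrocyte-like (45.9%) and 34 of the 37 with a UMI in oligodendrocyte precursor-like nuclei (44.8%). Interneuron-like and mossy cell-like nuclei each had 36 of 39 (54.7% and 55.7%) and CA3 or CA2 pyramidal neuron-like nuclei 29 of 36 (36.4%). A gene with no UMI in WT-CFC could only count as higher, among the 41 as among all genes. In oligodendrocyte-like nuclei this held for Isg15, Irf7, Usp18 and Rsad2 among others, so these counts are a description only. Slfn2, a gene of lymphocyte and macrophage quiescence, was the exception in astrocyte-like and oligodendrocyte-like nuclei, with 0 UMIs in KO-CFC and 2 in WT-CFC in each, too few to set an order. Only 9 of the 41 reached 100 UMIs over KO-CFC and WT-CFC in microglia-like nuclei, and all 9 were at least 1.5-fold higher. Of all genes with that depth 16.2% were that much higher and 17.8% lower. The 9 reached it mostly through KO-CFC, so their count is given only to account for them.

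**Figure D2:**
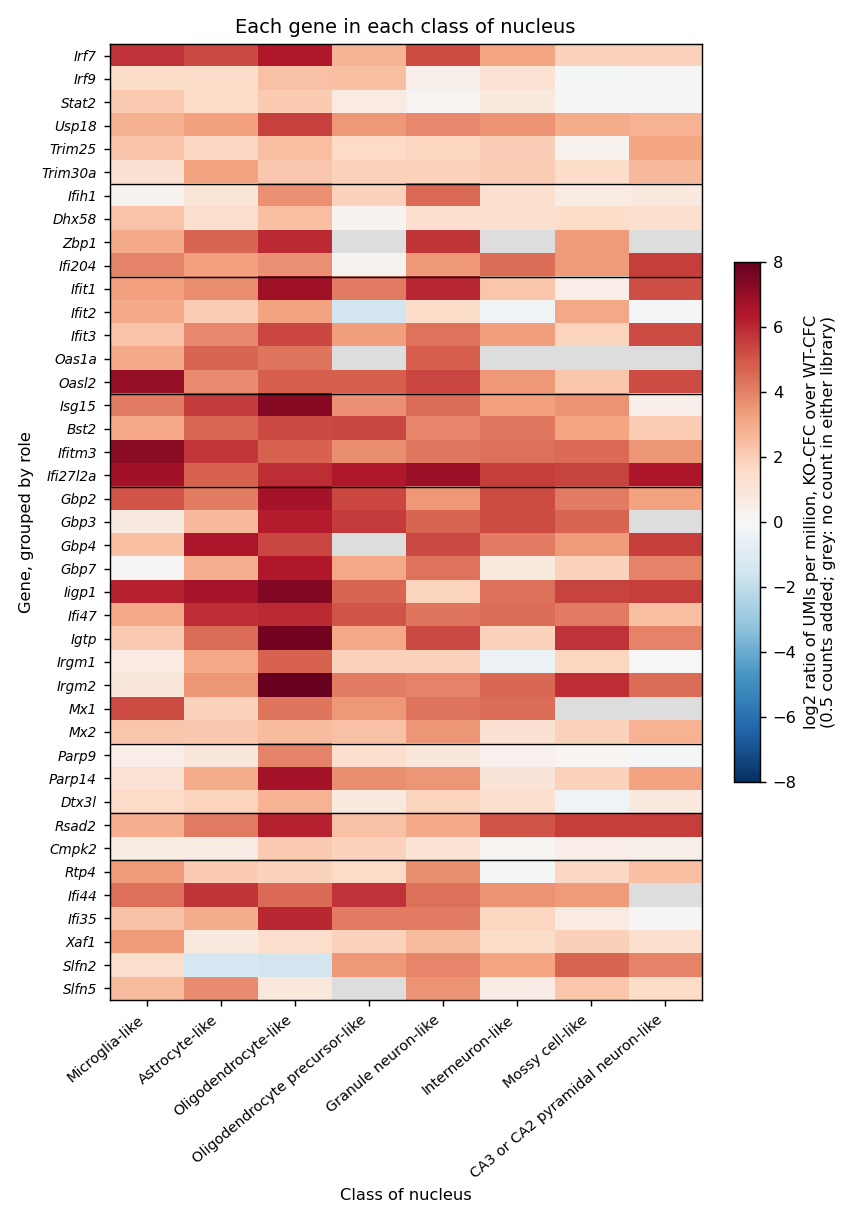
log2 ratio of UMIs per 1000000 between the library labelled KO-CFC and WT-CFC for each of the 41 genes (rows, grouped by role and split by lines) in 8 classes of nucleus (columns), with 0.5 added to each count and grey where neither library had a UMI. Red fills nearly the whole map, with 41 of 41 genes higher in microglia-like and granule neuron-like nuclei and 29 of 36 in the CA3 or CA2 pyramidal neuron-like class. Genes with no UMI in WT-CFC could only be counted as higher.

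Among the regulators, Irf7, the factor that amplifies type I interferon production, had no UMI in microglia-like nuclei of WT-naive and WT-CFC and 51 UMIs (53.0 CPM) in KO-CFC, at least 9.26-fold higher against 3 UMIs in WT-CFC. In granule neuron-like nuclei Irf7 had 3, 1 and 60 UMIs. Usp18, which removes ISG15 from proteins and dampens receptor signalling, stood at 0, 9.54 and 73.8 CPM in microglia-like nuclei of WT-naive, WT-CFC and KO-CFC. These low wild-type values contrast with those of Stat2 and Irf9, which act together in the complex that binds the response element. Stat2 stood at 21.7, 28.6 and 126 CPM in microglia-like nuclei (log2 ratio to WT-CFC 2.09, 1.36 to 3.02). In granule neuron-like nuclei it stood at 18.6, 22.9 and 26.8 CPM, and its log2 ratio of 0.22 had an interval from -0.05 to 0.50. In the CA3 or CA2 pyramidal neuron-like class Stat2 stood at 23.8, 24.8 and 22.9 CPM, so there it was not higher in KO-CFC. Stat2 made up 17.9% of the UMIs of the 41 genes in these neurons of KO-CFC and 4.41% in microglia-like nuclei. Irf9 in granule neuron-like nuclei was similarly flat, at 7.59, 7.53 and 10.0 CPM (0.41, -0.06 to 0.88). Trim25, a ubiquitin ligase of the RIG-I pathway, and Trim30a, a negative regulator of NF-kB signalling, stood 5.23 and 2.35-fold above WT-CFC in microglia-like nuclei.

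Of the sensors, Ifi204, a sensor of DNA in the interferon-inducible p200 family, was counted mostly in microglia-like nuclei among the glia of KO-CFC. It stood at 105 CPM (101 UMIs) in microglia-like nuclei, against 5.72 CPM (3 UMIs) in WT-CFC and 0 in WT-naive (log2 ratio to WT-CFC 3.98, 2.61 to 6.50). In astrocyte-like and oligodendrocyte-like nuclei of KO-CFC it had 2 and 3 UMIs. It made up 3.68% of the UMIs of the 41 genes in microglia-like nuclei and 0.112% in astrocyte-like nuclei. Zbp1, a sensor of Z-form nucleic acid that can trigger necroptosis, stood at 0, 3.81 and 38.4 CPM in microglia-like nuclei, and at 24.1 CPM in oligodendrocyte-like nuclei of KO-CFC, with no UMI there in the wild-type libraries. Ifih1, which encodes the RNA sensor MDA5, stood at 19.5, 30.5 and 37.4 CPM in microglia-like nuclei. Its log2 ratio to WT-CFC of 0.27 had an interval from -0.59 to 1.24. In oligodendrocyte-like nuclei, in contrast, Ifih1 had 1, 1 and 10 UMIs (log2 ratio to WT-CFC 3.65, 1.36 to 9.61). Dhx58, which encodes LGP2, a further RNA sensor, reached 13 UMIs in microglia-like nuclei of KO-CFC against 1 in WT-CFC.

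The RNA-binding effectors Ifit3, Oasl2 and Oas1a had few UMIs in the wild-type glia given here. Ifit3, of the family that binds foreign RNA ends, stood at 2.04, 6.24 and 94.1 CPM in astrocyte-like, 0, 1.58 and 79.5 CPM in oligodendrocyte-like, and 0, 13.4 and 68.6 CPM in microglia-like nuclei of WT-naive, WT-CFC and KO-CFC. In granule neuron-like nuclei it stood at 0.660, 0.450 and 10.0 CPM. The Ifit3 level of KO-CFC in granule neuron-like nuclei was thus below that of each of these glia. The libraries filled the clusters of the granule neuron-like class differently, and 1 cluster with 185 of its KO-CFC nuclei, where astrocyte markers were the second-best class, gave 1643 of its 2764 UMIs of the 41 genes. Ifit1, which holds back capped RNA lacking ribose methylation, had 2, 1 and 104 UMIs in granule neuron-like nuclei (log2 ratio to WT-CFC 6.03, 4.10 to 11.93). Oasl2, a member of the 2'-5' oligoadenylate synthetase family, had no UMI in wild-type microglia-like nuclei and 115 (119 CPM) in KO-CFC, at least 20.9-fold higher. Oas1a, whose product makes the messenger that activates RNase L, reached 22 UMIs in microglia-like nuclei of KO-CFC and 1 in WT-CFC. Ifit2 was present in wild-type oligodendrocyte precursor-like nuclei, with 18 UMIs (23.5 CPM) in WT-naive and 15 (12.3 CPM) in WT-CFC.

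KO-CFC was the high library for all 4 genes of small secreted or membrane proteins in the classes given here. Bst2 encodes tetherin, which holds budding viruses at the cell surface, and stood at 10.9, 21.0 and 185 CPM in microglia-like, 4.76, 6.24 and 156 CPM in astrocyte-like, and 0.825, 1.80 and 27.3 CPM in granule neuron-like nuclei. Its KO-CFC level was thus lower in these neurons than in the glia. Ifitm3, which blocks the entry of viruses by fusion, had no UMI in wild-type microglia-like nuclei and 136 in KO-CFC, at least 24.7-fold higher. In astrocyte-like nuclei Ifitm3 stood at 6.79, 3.97 and 210 CPM, where it made up 10.8% of the UMIs of the 41 genes, against 1.81% in oligodendrocyte-like nuclei. Isg15, the ubiquitin-like protein that is joined to others in this response, stood at 2.72, 1.14 and 68.9 CPM in astrocyte-like nuclei, and had 0, 0 and 42 UMIs in oligodendrocyte-like nuclei. Ifi27l2a had 0, 1 and 188 UMIs in granule neuron-like nuclei (log2 ratio to WT-CFC 6.88, 4.97 to 12.77). This gene also made up 13.2% of the UMIs of the 41 genes in the T or NK cell-like nuclei of KO-CFC, against 1.85% in astrocyte-like nuclei.

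Iigp1, an immunity-related GTPase known to attack the vacuoles of intracellular parasites, had the largest share of any of the 41 genes in oligodendrocyte-like nuclei of KO-CFC, 12.2% of their UMIs. It stood at 0, 0.789 and 200 CPM there (0, 1 and 141 UMIs; log2 ratio to WT-CFC 7.41, 5.48 to 13.30). In astrocyte-like nuclei Iigp1 stood at 0, 1.14 and 138 CPM and in microglia-like nuclei at 2.17, 1.91 and 203 CPM. Neurons differed in where this gene started: in granule neuron-like nuclei it was at 4.45, 4.16 and 14.2 CPM (1.76, 1.24 to 2.34). The other immunity-related GTPases were high in the same class. In oligodendrocyte-like nuclei Irgm2 and Igtp had no UMI in either wild-type library and 84 and 57 in KO-CFC, at least 50.4 and 34.2-fold higher, and Irgm1 stood at 1.21, 3.16 and 90.9 CPM. In microglia-like nuclei Irgm1 and Irgm2 had wild-type UMIs, and their log2 ratios to WT-CFC were 0.68 (-0.11 to 1.59) and 0.91 (0.31 to 1.59). Gbp2, a guanylate-binding protein that coats intracellular pathogens, stood at 0, 4.54 and 83.1 CPM in astrocyte-like nuclei and made up 4.26% of the UMIs of the 41 genes there, against 1.06% in microglia-like nuclei. Gbp7 was at its wild-type level in microglia-like nuclei (28.2, 26.7 and 29.1 CPM; 0.10, -0.85 to 1.16), and stood at 3.40, 6.24 and 49.2 CPM in astrocyte-like nuclei. Gbp3, Gbp4 and Ifi47 were lower in microglia-like nuclei of KO-CFC, at 7.27, 14.5 and 7.27 CPM, than in oligodendrocyte-like nuclei, at 29.8, 46.9 and 24.1 CPM, and each had 0 to 2 UMIs in the wild-type libraries of both classes. Mx1, which blocks influenza-like viruses in the nucleus, had 2, 0 and 34 UMIs in microglia-like nuclei, and Mx2 6, 7 and 63. The GBP, immunity-related GTPase, IFIT and Schlafen genes have close copies in the genome, and how reads shared by copies were split was not given in the sources used here.

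Rsad2, which encodes viperin and makes a chain-terminating nucleotide, stood at 2.04, 3.41 and 64.5 CPM in astrocyte-like nuclei and had 0, 0 and 19 UMIs in oligodendrocyte-like nuclei. Cmpk2, its neighbour in the genome and a mitochondrial nucleotide kinase, differed from it: in astrocyte-like nuclei it had 3, 9 and 7 UMIs (log2 ratio to WT-CFC 0.61, -1.08 to 2.18). In mossy cell-like nuclei, the class with its highest level in WT-CFC and KO-CFC, Cmpk2 stood at 4.05, 7.16 and 10.1 CPM. Parp14, an ADP-ribosyltransferase, stood at 49.9, 99.2 and 222 CPM in microglia-like nuclei (1.15, 0.72 to 1.63). Its relatives Parp9 and Dtx3l, which act as a pair, had log2 ratios to WT-CFC of 0.56 and 1.51 there. Xaf1, an apoptosis-promoting gene, was already present in wild-type oligodendrocyte-like nuclei, at 10.9, 35.5 and 93.7 CPM in WT-naive, WT-CFC and KO-CFC. Rtp4, a chaperone of receptors, stood at 2.17, 3.81 and 49.9 CPM in microglia-like nuclei and at 6.36, 6.70 and 6.07 CPM in interneuron-like nuclei, where KO-CFC was not higher. Ifi44 had no wild-type UMI in microglia-like, astrocyte-like and oligodendrocyte-like nuclei and 19, 13 and 6 UMIs in KO-CFC. Ifi35 had 7, 7 and 68 UMIs in microglia-like nuclei of WT-naive, WT-CFC and KO-CFC. Slfn5, like Ifi204, was counted in microglia-like nuclei of KO-CFC (59 UMIs) and hardly in oligodendrocyte-like nuclei, with 1 UMI in each of the 3 libraries.

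The UMIs of these genes were spread unevenly over the nuclei of KO-CFC. To compare nuclei of unlike depth, each barcode was thinned to 1000 UMIs and shallower barcodes were left out. With 3 or more UMIs of the 41 genes after thinning were 42.6% of microglia-like nuclei in KO-CFC (193 of 453, 38.0 to 47.3), 3.30% in WT-CFC (9 of 273) and 0.823% in WT-naive (2 of 243). The shares of astrocyte-like nuclei were 21.6% (97 of 449), 0.904% (7 of 774) and 0.136% (1 of 736). In oligodendrocyte-like nuclei they were 17.5% (61 of 349), 0 of 611 and 0 of 395, with exact 95% upper bounds of 0.602% and 0.930%. At the same threshold 0.889% of granule neuron-like nuclei of KO-CFC passed (17 of 1912), and none of 150 CA3 or CA2 pyramidal neuron-like nuclei, with an upper bound of 2.43%. The latter serve as a background class, at a median of 7846.5 UMIs against 1105.5 in microglia-like nuclei. Single nuclei went far above the threshold: the highest thinned count was 40 in astrocyte-like nuclei of KO-CFC, while 45.4% of them had no UMI of the 41 genes at that depth. Before thinning, 43.5% of microglia-like, 31.5% of astrocyte-like, 25% of oligodendrocyte-like, 10.2% of granule neuron-like and 11.2% of CA3 or CA2 pyramidal neuron-like nuclei of KO-CFC had 3 or more. In KO-CFC 273 microglia-like, 59 astrocyte-like and 43 oligodendrocyte-like nuclei were too shallow to be thinned.

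**Figure D3:**
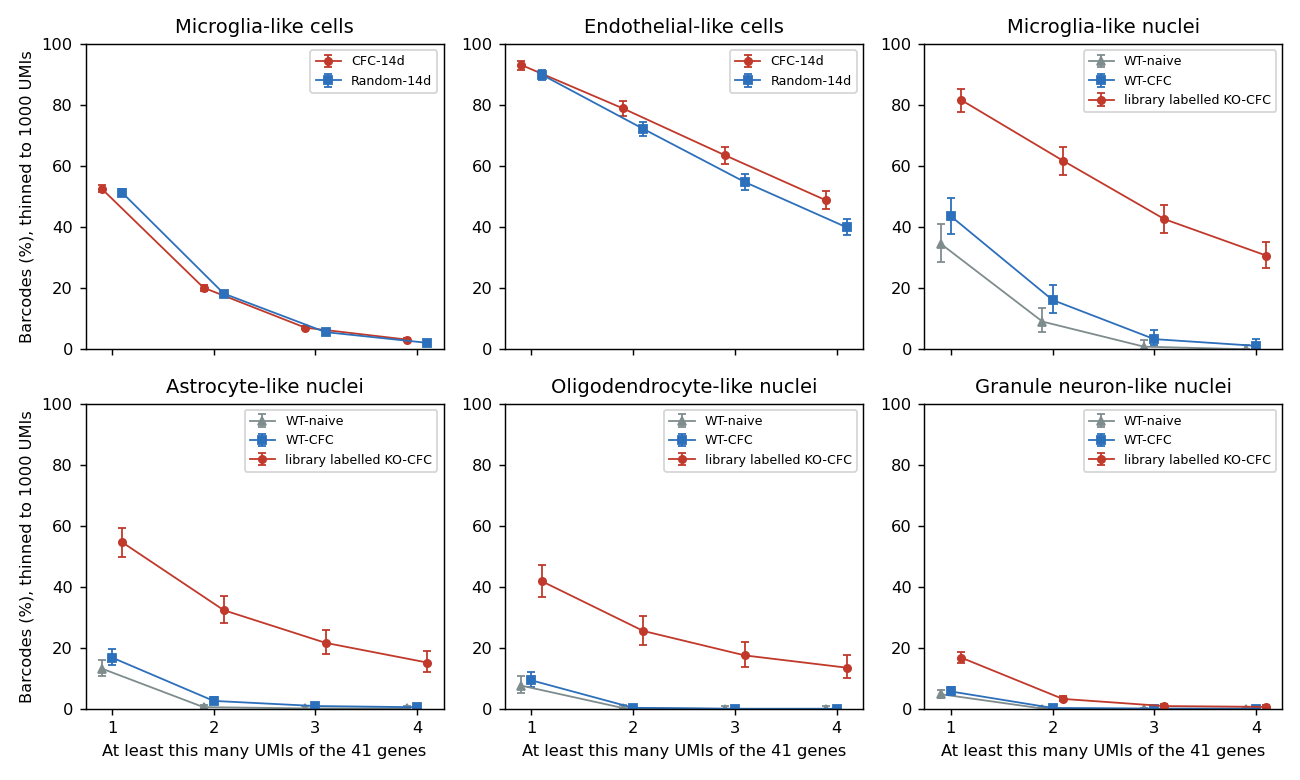
Share of barcodes with at least 1, 2, 3 or 4 UMIs of the 41 genes after thinning each barcode to 1000 UMIs, with exact 95% binomial intervals, in 2 classes of dissociated cells (CFC-14d, circles, and Random-14d, squares) and 4 classes of nuclei (WT-naive, triangles, WT-CFC, squares, and the library labelled KO-CFC, circles). At 3 or more UMIs the circles of microglia-like, astrocyte-like and oligodendrocyte-like nuclei stand at 42.6%, 21.6% and 17.5%, while the wild-type nuclei stay at 3.30% or below.

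RNA of lymphocytes was found in the same nuclei classes. UMIs of 19 T cell and antibody genes stood at 2721 CPM in microglia-like, 1593 CPM in astrocyte-like, 1627 CPM in oligodendrocyte-like and 670 CPM in granule neuron-like nuclei of KO-CFC. The wild-type libraries had 2.27 to 69.4 CPM in these classes. Barcodes of KO-CFC without any UMI of the 19 genes numbered 72 microglia-like, 55 astrocyte-like, 32 oligodendrocyte-like and 214 granule neuron-like, and in them the 41 genes stood at 3877, 2461, 1699 and 156 CPM. Shallow barcodes are the more likely to hold none of these UMIs, and depth was not matched between these barcodes and the rest. The 1023 nuclei led by antibody genes had 7972 CPM of the 19 genes and 802 CPM of the 41, and an unnamed cluster of 98 nuclei had 457 and 1968 CPM. T or NK cell-like nuclei had 13452 and 2924 CPM. Stress genes stood at 150 CPM in all nuclei of KO-CFC, 85.7 CPM in WT-CFC and 60.3 CPM in WT-naive, and haemoglobin made up 0.0316%, 0.00292% and 0.00335% of UMIs. Their part in the result was not tested, and the labelled genotype cannot be told apart from anything else particular to this 1 library. Xist and Ddx3y, whose levels differ between the sexes, also set it apart from the wild-type libraries.

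The granule neuron-like class was made of 3 clusters that the libraries filled differently. The cluster with most of the wild-type nuclei held 1159, 1350 and 106 nuclei of WT-naive, WT-CFC and KO-CFC, and the cluster with most of KO-CFC held 13, 14 and 1636. In these the 41 genes stood at 52.3, 52.7 and 144 CPM, and at 84.3, 52.3 and 158 CPM. The remaining cluster of 32, 87 and 185 nuclei stood at 93.5, 114 and 703 CPM and gave 1643 of the 2764 UMIs of the 41 genes in KO-CFC, and astrocyte markers were its second-best class. Within the first cluster the fold between KO-CFC and WT-CFC was therefore smaller than over the class, with KO-CFC still the higher. The summed log2 ratio of the class, 2.33, was 1.52 when the nuclei were split into finer clusters and 1.41 without barcodes holding lymphocyte UMIs.

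Between the wild-type libraries of nuclei the 41 genes differed less. In microglia-like nuclei the sum was 1.61-fold higher in WT-CFC than in WT-naive (607 against 378 CPM; log2 ratio 0.68, 0.41 to 0.96), and 27 of the 35 genes with a UMI had a higher CPM in WT-CFC, against 50.2% of all genes. None of the 41 reached 100 UMIs over this pair, in which 5.1% of the 2039 genes that did were 1.5-fold higher and 2.5% lower. Of the 8 with at least 20, Parp14 (49.9 and 99.2 CPM in WT-naive and WT-CFC; 0.97, 0.26 to 1.77) and Irgm1 (8.68 and 32.4 CPM; 1.77, 0.28 to 3.93) had intervals above 0. Trim30a (58.6 and 93.5 CPM), Parp9, Ifih1, Stat2 and Irgm2 were also higher in WT-CFC, with intervals that included 0, and Gbp7 was level. In astrocyte-like nuclei the sum was 1.40-fold higher in WT-CFC (0.48, 0.25 to 0.73), with 26 of 35 genes higher against 49.1% of all genes. Mx2 had 6 and 23 UMIs there (log2 ratio with an interval of 0.34 to 3.27). In granule neuron-like nuclei 18 of 35 were higher (53.6% of all genes) with a summed log2 ratio of 0.09 (-0.11 to 0.29), in CA3 or CA2 pyramidal neuron-like 17 of 34 (52.5%; 0.01, -0.09 to 0.12), and in mossy cell-like 12 of 29 (47.7%; 0.02, -0.14 to 0.19). In these neurons the difference was not detectable at this depth. Oligodendrocyte precursor-like nuclei had 23 of 35 higher (53.7%; 0.29, -0.11 to 0.71), oligodendrocyte-like 16 of 23 (57.2%; 0.34, -0.12 to 0.81) and interneuron-like 13 of 31 (50.2%; -0.19, -0.38 to 0.00). Single genes of oligodendrocyte-like nuclei went both ways. Xaf1 had 9 and 45 UMIs in WT-naive and WT-CFC (1.64, 0.65 to 2.92) and Rtp4 1 and 12 (2.44, 0.21 to 8.39). Stat2 had 30 and 19 (-1.26, -2.19 to -0.40).

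Both comparisons of KO-CFC use the same library, and the values against WT-naive are given beside those against WT-CFC for that reason only. Against WT-naive the summed log2 ratio was 2.92 (2.69 to 3.14) in microglia-like, 3.63 in astrocyte-like, 4.48 in oligodendrocyte-like and 2.42 in granule neuron-like nuclei. The count of higher genes was 41 of 41 in microglia-like nuclei (56.1% of all genes), 40 of 40 in oligodendrocyte-like (54.4%), 40 of 41 in astrocyte-like (52.7%), 41 of 41 in granule neuron-like (59.1%) and 34 of 38 in oligodendrocyte precursor-like nuclei (49.4%). Interneuron-like nuclei had 34 of 39 (56.7%), mossy cell-like 37 of 39 (55.1%) and CA3 or CA2 pyramidal neuron-like 28 of 36 (36.9%). Here too, a gene with no UMI in WT-naive could only count as higher.

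In dissociated cells every one of the 41 genes had 100 or more UMIs in each of CFC-14d and Random-14d. Summed over all cells they stood at 832 and 745 CPM. Monocyte-like and endothelial-like cells carried the highest levels, at 5542 and 4913 CPM and at 4302 and 3346 CPM in CFC-14d and Random-14d. Border macrophage-like cells stood at 3276 and 2695 CPM. Microglia-like cells, at 967 and 822 CPM, were lower than these, and choroid plexus epithelium-like cells lowest in CFC-14d, at 402 and 346 CPM. Of the 41 genes, 22 had their highest level in endothelial-like cells in CFC-14d and 17 in Random-14d, among them Isg15, Slfn5, Iigp1 and Rtp4 in both. The share of all genes with their highest level in that class is not given, so these counts are a description only. Monocyte-like cells had the highest level of Ifitm3 (2900 and 3001 CPM), Ifi27l2a (746 and 357 CPM), Irf7, Dhx58, Zbp1 and Mx1 in both libraries. Border macrophage-like cells had that of Bst2 (880 and 874 CPM), Trim30a and Ifi204. T or NK cell-like cells led for Igtp, Ifi47 and Dtx3l, and erythroid-like cells for Rsad2 (231 and 165 CPM).

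**Figure D4:**
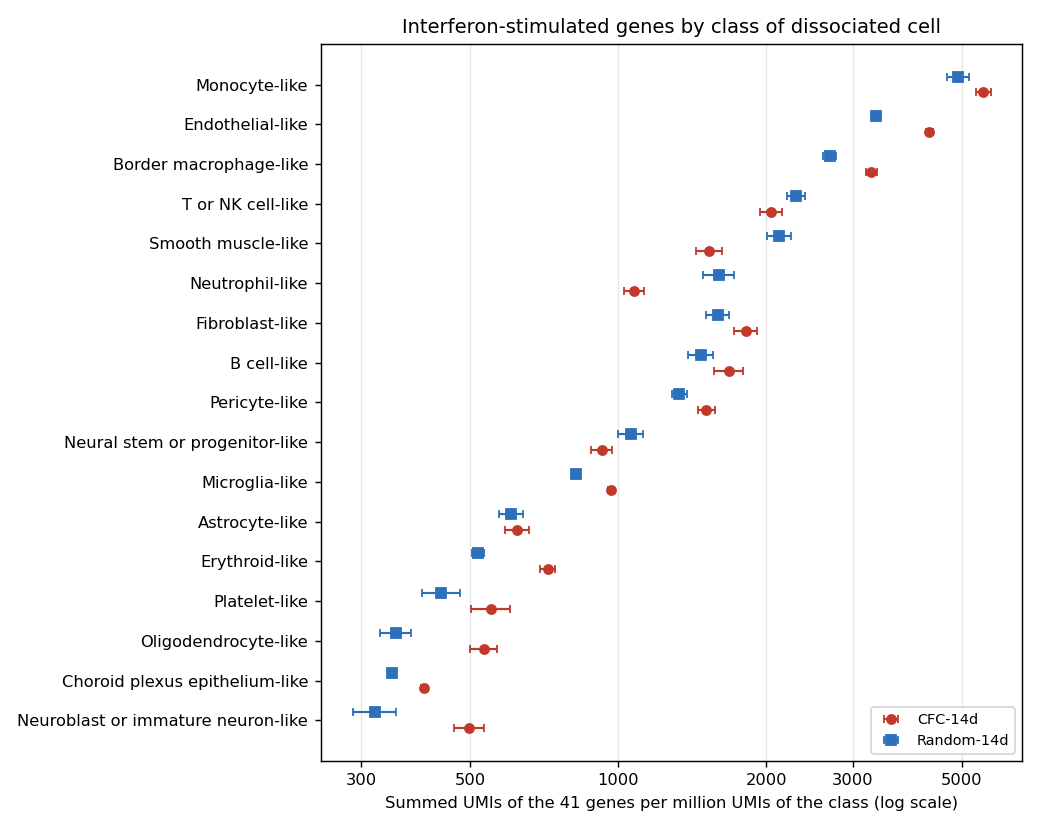
Summed UMIs of the 41 genes per 1000000 UMIs of each class of dissociated cell (log scale) in CFC-14d (circles) and Random-14d (squares), with exact 95% counting intervals. Monocyte-like and endothelial-like cells stand rightmost, and the circle lies right of the square in 13 of 17 classes.

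CFC-14d was the higher library in 13 of the 17 named classes of cells. In microglia-like cells the summed log2 ratio was 0.23 (0.20 to 0.27), and 11 of the 32 genes with at least 100 UMIs were 1.5-fold or more higher and 0 lower. Of all 12281 genes with that depth 0.814% were that much higher and 0.684% lower. The median log2 ratio of the 32 was 0.26, against 0.02 for all genes, and 29 of the 32 were above 0. Without cells that held a UMI of the 19 lymphocyte and antibody genes named above, 6 of 28 genes were at least 1.5-fold higher, and of all 10761 genes 0.771% were that much higher and 0.558% lower. Stress genes of dissociation stood at 22007 and 21509 CPM and haemoglobin at 1.26% and 1.92% of UMIs in these cells, and their part in the result was not tested.

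The 11 genes came from several roles. Ifit3 stood at 14.7 CPM in CFC-14d and 6.61 CPM in Random-14d (log2 ratio 1.15, 0.84 to 1.46), and Ifit2 at 7.38 and 4.85 CPM (0.60). Ifi27l2a stood at 36.1 and 19.3 CPM (0.90, 0.72 to 1.08) and Isg15 at 39.2 and 24.7 CPM (0.66, 0.50 to 0.83). Slfn5, Rtp4, Irf7, Slfn2, Ifi204, Gbp2 and Mx1 had log2 ratios of 0.61 to 0.84, and the lower bound lay above 0 for each. Ifi204 stood at 12.9 and 7.89 CPM. The nearest to 0 were Irgm1 (0.01), Mx2 (0.03), Ifi35 (-0.05), Igtp (-0.06), Bst2 (0.07) and Irgm2 (-0.07). So the immunity-related GTPases with 100 UMIs were level between the libraries while Ifit3 and Ifi27l2a were not. Below 100 UMIs were 9 genes, and Iigp1 among them had 30 and 10 UMIs (1.71, 0.68 to 2.95).

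CFC-14d had the higher CPM in each of the 5 clusters of the class, for which intervals are not given. Its largest clusters stood at 938 and 799, 857 and 784, and 923 and 873 CPM in CFC-14d and Random-14d, and a smaller one at 1006 and 737 CPM. A cluster of 156 and 189 cells led by the chemokine genes Ccl4 and Ccl3 had the highest level, 2720 and 1783 CPM. After thinning to 1000 UMIs, 7.06% of microglia-like cells of CFC-14d (473 of 6703, 6.45 to 7.70) and 5.59% of Random-14d (500 of 8949, 5.12 to 6.08) had 3 or more UMIs of the 41 genes. With 3 or more different genes of the list were 5.65% and 4.28%. Before thinning the shares with 3 or more UMIs were 26.7% and 21.1%, at median depths of 2157 and 1956 UMIs, and 1801 and 1069 cells were too shallow to be thinned. Oligodendrocyte-like cells, taken as a class of low level, gave 3.06% and 1.81%, at 3575 and 3322 UMIs. The cells with several of these UMIs were thus a small fraction in both libraries, while 52.6% and 51.3% had at least 1.

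**Figure D5:**
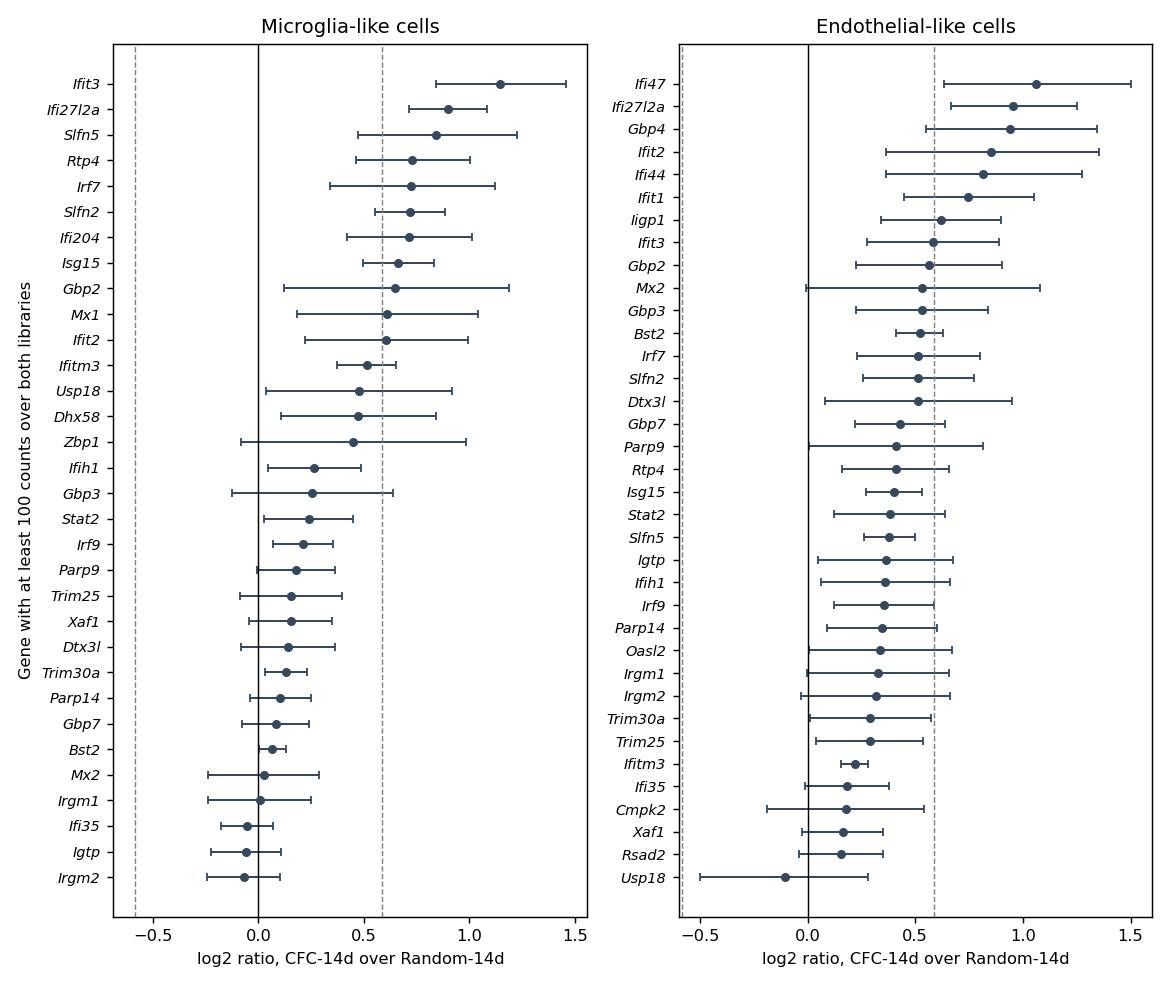
log2 ratio of UMIs per 1000000 between CFC-14d and Random-14d for the genes with at least 100 UMIs over both libraries, 32 in microglia-like and 36 in endothelial-like cells, ordered by size, with exact 95% counting intervals. Dashed lines mark 1.5-fold, passed upward by 11 genes in microglia-like cells, led by Ifit3 at 1.15, and by 7 in endothelial-like cells, led by Ifi47 at 1.06.

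In endothelial-like cells, the lining of blood vessels, the summed log2 ratio was 0.36 (0.33 to 0.40). Here 7 of the 36 genes with 100 UMIs were at least 1.5-fold higher in CFC-14d and 0 lower, against 1.77% and 1.07% of all genes, with a median of 0.40 against 0.03 for all genes. The 7 were Ifi47 (36.8 and 17.6 CPM; 1.06), Ifi27l2a (74.4 and 38.3 CPM; 0.95), Gbp4 (41.4 and 21.5 CPM; 0.94), Ifit2, Ifi44, Ifit1 and Iigp1 (72.1 and 46.9 CPM; 0.62). Ifi27l2a and Ifit2 were also among the 11 of microglia-like cells, where Ifi47, Gbp4, Ifi44, Ifit1 and Iigp1 were below 100 UMIs. Nearest to 0 were Usp18 (-0.11), Rsad2 and Xaf1 (0.16 each), Ifi35 and Cmpk2 (0.18 each) and Ifitm3, at 1182 and 1015 CPM (0.22). Both clusters of the class had the same order: 4186 and 3163 CPM in the larger, and 4666 and 4190 CPM in the one led by Plvap, a gene of fenestrated endothelium. Haemoglobin made up 4.48% and 7.03% of the UMIs of these cells, and its part in the result was not tested.

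Border macrophage-like cells, the macrophages of meninges and vessels, had 3 of 16 genes at least 1.5-fold higher (2.79% of all genes): Ifit3 (82.9 and 36.6 CPM; 1.17), Isg15 (93.6 and 51.4 CPM; 0.86) and Slfn5 (0.64). In monocyte-like cells Ifi27l2a stood at 746 and 357 CPM (1.06, 0.75 to 1.38) while Ifitm3 was level (-0.05, -0.17 to 0.07). Oligodendrocyte-like and neuroblast or immature neuron-like cells had larger summed ratios than microglia-like cells, 0.60 (0.46 to 0.73) and 0.64 (0.46 to 0.82), from 951 and 782, and 784 and 375 UMIs. Of the 3 genes with 100 UMIs in oligodendrocyte-like cells, Ifi27l2a was 1.5-fold higher (99.7 and 53.1 CPM) and 0 lower, against 1.19% and 2.59% of all genes. In choroid plexus epithelium-like cells 17 of 29 genes were at least 1.5-fold higher and 0 lower, against 12.9% and 0.298% of all genes, whose median was 0.21. The median depth of the class in CFC-14d was 2091 UMIs, against 17850 in Random-14d. The libraries filled its clusters differently, with 4952 and 516 cells of CFC-14d and Random-14d in the largest. The others held 1170 and 1171, and 732 and 740 cells. Astrocyte-like cells, at 622 and 605 CPM, were level (0.04, -0.07 to 0.15). Of their 4 genes with 100 UMIs none was 1.5-fold higher (1.45% of all genes) and 1 was lower (0.893%), Ifitm3 at 123 and 195 CPM.

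The other genes of the pathway were taken from a list of 79 that holds none of the 41. Ligands were scarce: Ifng, which encodes interferon gamma, had 138 and 181 UMIs over all cells of CFC-14d and Random-14d, of which 93 and 132 were in T or NK cell-like cells. In WT-naive, WT-CFC and KO-CFC Ifng had 0, 1 and 12 UMIs, 5 of the 12 in T or NK cell-like nuclei. Ifnb1, which encodes interferon beta, had 20 and 15 UMIs among cells and 0 in all 3 libraries of nuclei.

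In microglia-like nuclei 22 of the 79 had 100 UMIs over KO-CFC and WT-CFC, and 12 were at least 1.5-fold higher in KO-CFC and 1 lower, against 16.2% and 17.8% of all genes. The receptor genes Ifngr2 and Ifnar2 stood at 232 and 103 CPM in KO-CFC and 124 and 66.8 CPM in WT-CFC, and Ifngr1 at 222 and 320 CPM. The kinase gene Jak1 was level at 169 and 175 CPM. Of 10 further target genes 8 were higher, among them Nlrc5, the activator of MHC class I genes (157 and 17.2 CPM), Psmb9 of the immunoproteasome (101 and 17.2 CPM) and Cd274, which encodes PD-L1 (130 and 3.81 CPM). Tlr7, a sensor of single-stranded RNA, was the 1 lower, at 84.1 and 141 CPM. In astrocyte-like nuclei 3 of 12 were higher and 0 lower, against 13.3% and 14.1% of all genes, with Cxcl10, a chemokine that draws T cells, at 119 and 2.84 CPM. In granule neuron-like nuclei 8 of 20 were higher and 1 lower, against 17.5% and 7.06% of all genes. Genes that came to 100 UMIs only through KO-CFC had to differ, as Nlrc5, Psmb9, Cd274 and Cxcl10 did, so these counts are a description and support nothing.

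In microglia-like cells 57 of the 79 were measured between CFC-14d and Random-14d, with 4 at least 1.5-fold higher and 0 lower, against 0.814% and 0.684% of all genes, and a median log2 ratio of 0.14. The 4 were Ccl5 (18.7 and 9.99 CPM), Nlrc5, Ifi207 and Ifi209. Receptors (5 measured) and upstream sensors (8 measured) had medians of 0.05, against 0.26 for the 32 of the 41 genes. In endothelial-like cells 46 were measured, with 3 higher and 1 lower, against 1.77% and 1.07% of all genes, and a median of 0.21. Sting1, an adaptor of DNA sensing, was the lower one, at 13.6 and 21.2 CPM.

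Across the 25 combinations of class and library of nuclei, the genes whose CPM followed the summed level of the 41 most closely were Rnf213, H2-K1, Ddx60 and B2m, with Spearman's rho of 0.95, 0.94, 0.94 and 0.94. Across the 34 combinations of cells they were Clec2d, Sp100 and Gbp8, with 0.91, 0.88 and 0.88. These are descriptions over points that share libraries and depth.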

How the data were processed

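Whole-number counts of UMIs per gene and barcode were deposited as 1 matrix per library. Per the submitters' processing notes, the authors used Cell Ranger 8.0.1 and Seurat 5.4.0 with builds GRCm39 and mm39, and the annotation release was not given in the sources used here. How reads shared between similar genes were counted was not given either.

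The members and lists were chosen with earlier results of these data known. Barcodes with at least 500 UMIs, 300 genes and at most 20% (cells) or 5% (nuclei) mitochondrial UMIs were kept. Automatic thresholds on Scrublet doublet scores marked 14.8% of barcodes in KO-CFC, 7.61% in Random-14d, 0.0677% in CFC-14d, 0.0093% in WT-naive and 0 in WT-CFC. The highest 8% of scores were therefore removed in every library, which left part of the marked barcodes in KO-CFC. Cells and nuclei were clustered apart with scanpy 1.11.5 (2000 variable genes without the 41 members, 30 components, 15 neighbours, Leiden resolution 1, leidenalg 0.10.2), under Python 3.11.15 with scipy 1.17.1. Clusters were named where at least 3 markers of a class were 2-fold above the rest and the next class scored at most 0.65 of the best (0.75 where a marker led the cluster). Unnamed barcodes numbered 3764 and 3795 in CFC-14d and Random-14d, and 2716, 5073 and 2668 in WT-naive, WT-CFC and KO-CFC.

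Counts were summed per class and library. Single-gene log2 ratios have 0.5 added to each count, and sums do not. A gene was measured with at least 100 counts over both libraries and called higher or lower at 1.5-fold. All 41 genes could be named, with up to 12 of the largest ratios past 1.5-fold and up to 6 nearest to 0 given in full. A ratio against 0 counts is a lower bound against 3 counts. Intervals are exact (Poisson, conditional binomial or Clopper-Pearson, 95%) and leave out differences between mice, since each group is 1 library. The scripts were tested on simulated data. Alternatives changed the filters, doublet removal, clustering, weighting, total, count minimum and thinning, and none re-clustered for the filter and 15% doublet settings. The 0.75 exception, the 8% removal, the 3 UMIs used for shares, summed ratios as main values, the 19-gene lymphocyte and antibody list, leaving out Ifitm3 and Bst2, and the comparisons of astrocyte-like, oligodendrocyte-like and granule neuron-like nuclei were chosen after seeing the data. Values of 1 further gene of the pathway list are not reported here.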

Additional observations from a re-analysis of the deposited data

Results flagged for a closer look

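In 4 of the 17 classes of dissociated cells the 41 genes together were lower in CFC-14d than in Random-14d, against the direction of the other 13. The difference between these classes and the others was not tested. Neutrophil-like cells stood at 1077 and 1602 CPM in CFC-14d and Random-14d, a log2 ratio of -0.57. That class joined a cluster of 433 and 46 cells, at 852 and 1092 CPM, with one of 49 and 71 cells, at 3935 and 3017 CPM, so the libraries filled it differently and the smaller cluster had the opposite order. Slfn2 stood at 138 and 421 CPM and Ifitm3 at 268 and 475 CPM in it. Smooth muscle-like cells stood at 1531 and 2123 CPM (-0.47), with Ifitm3 at 488 and 838 CPM and Slfn5 at 79.5 and 154 CPM. Neural stem or progenitor-like cells stood at 925 and 1060 CPM (-0.20) and T or NK cell-like cells at 2047 and 2304 CPM (-0.17).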

How the results depend on the processing

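No direction of a summed ratio was reversed by any alternative run. The summed log2 ratio of CFC-14d to Random-14d in microglia-like cells was 0.20 with every barcode weighted equally, 0.20 without barcodes holding lymphocyte or antibody UMIs (6 of 28 genes 1.5-fold higher) and 0.27 without Ifitm3 and Bst2. In endothelial-like cells it was 0.41 with no doublets removed, 0.29 with 15% removed, 0.31 with equal weights, 0.32 with haemoglobin and mitochondrial UMIs left out of the total and 0.40 without Ifitm3 and Bst2. For KO-CFC against WT-CFC, microglia-like nuclei gave 1.79 with no doublets removed (19 genes called higher), 1.99 with equal weights and 2.64 without lymphocyte UMIs, and 32 and 37 genes were called at minimums of 20 and 1 counts. Against WT-naive the values were 2.37 (22 genes), 3.38 without lymphocyte UMIs, and 34 and 40 genes. These gene counts for KO-CFC are given without the share of all genes at the same settings. At low minimums a gene with no wild-type UMI could only be called higher, so the counts are a description only. Astrocyte-like nuclei gave 2.50 with the 41 genes allowed among variable genes, 3.61 without lymphocyte UMIs and 2.92 without Ifitm3 and Bst2. Granule neuron-like nuclei, in the order no doublets removed, 15% removed, Leiden resolution 2, the 41 genes allowed, equal weights, no lymphocyte UMIs and no Ifitm3 and Bst2, gave 1.64, 1.89, 1.52, 1.54, 1.98, 1.41 and 2.14. Shares of microglia-like cells were 24.5% and 20.2% in CFC-14d and Random-14d when thinned to 2000 UMIs, 20.2% and 18.2% at 2 or more UMIs, and 3.15% and 2.08% at 4 or more. Of the checks on main results for comparisons and shares, 36 moved and 164 stayed within their counting interval or within 1.5 times the count. Of the checks on further results, 128 moved and 326 stayed. The cause of each move was not tested beyond what the setting itself changes. No paired analysis was possible because each group is 1 library.

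In nuclei most of the 41 genes had under 100 UMIs in a class of the wild-type libraries, so wild-type differences of single genes were mostly not detectable.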

Other observations

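Nuclei of vascular classes were too few for the comparisons above. Endothelial-like nuclei stood at 563, 1129 and 3898 CPM of the 41 genes in WT-naive, WT-CFC and KO-CFC, from 61, 59 and 77 nuclei, and Ifitm3 made up 23.6% of their UMIs of the 41 genes in KO-CFC. Erythroid was the second-best class of their cluster (score 3.803 against 5.475), and the haemoglobin genes Hba-a1, Hba-a2, Hbb-bs and Hbb-bt were among its leading genes. Pericyte-like nuclei stood at 248, 220 and 957 CPM from 32, 61 and 27 nuclei.

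In microglia-like cells thinned to 1000 UMIs, 87 of 6703 in CFC-14d (1.30%) and 60 of 8949 in Random-14d (0.670%) had UMIs of 5 or more different genes of the 41, and the highest thinned sums were 31 and 32 UMIs.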
